A study of Homo sapiens with 16 samples.

Results

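RNA abundance at 24 and 36 h after the start of TGF-beta treatment was compared with that at 6 and 12 h in A549, a long-established cell line from a human adenocarcinoma of the lung. The 8 libraries at these 4 times were taken from the 16 libraries of the series, which run from 0 to 96 h with 2 libraries, replicate 1 and replicate 2, at each time. All 8 came from the same line under the same treatment, labelled as an epithelial to mesenchymal transition (EMT) induced with TGF-beta, so the windows differ in the time of exposure. The dose of TGF-beta is not given in the sources used here. No untreated culture was sampled after 0 h, so exposure to TGF-beta and time in culture cannot be told apart. Nothing in the labels states whether a time's replicates are separate cultures, and p-values therefore describe the scatter of these libraries alone, which could be technical.

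TGF-beta binds type I and type II receptor kinases at the cell surface, and the type I receptor phosphorylates SMAD2 and SMAD3, which enter the nucleus with SMAD4 and regulate genes there. Within hours this induces feedback inhibitors such as SMAD7 and SKIL and transcription factors of the SNAI and ZEB families, which repress epithelial genes such as CDH1, encoding the junction protein E-cadherin. Over days the cells lose junctions and gain mesenchymal genes for matrix, integrins and proteases. A549 cells also carry a KEAP1 mutation that leaves the transcription factor NRF2 active, so they make large amounts of NRF2-driven detoxifying and antioxidant enzymes.

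Values are TPM, a length-corrected share of each library's transcripts, rescaled after 6 abundant small RNAs were removed. Differences are of log2(TPM + 1), 24 and 36 h minus 6 and 12 h, a scale on which the change of weakly expressed genes is understated. Read totals cannot be had from TPM, so sequencing depth is unknown. The share of deposited TPM held by the small RNAs was lowest in 12 h replicate 1 (42.5%) and highest in 6 h replicate 1 (60.5%). Genes listed at 0 numbered 29540 to 31187 of 57773 in 7 of the libraries and 36116 in 36 h replicate 2. Libraries did not always correlate best with their own time, over the log2 values of all genes kept. The early library 12 h replicate 1 correlated at 0.950 with 12 h replicate 2 and at 0.976 with 24 h replicate 1, a library of the late window. The 36 h pair correlated at 0.946, below the 0.987 of 36 h replicate 1 with 24 h replicate 1 and the 0.969 of 36 h replicate 2 with 24 h replicate 2. The 24 h pair correlated at 0.973, below the 0.985 of 24 h replicate 2 with 12 h replicate 2, and the 6 h pair at 0.982. Labels were kept as given; whether 12 h replicate 1 differs from its label in time or treatment was not tested, and counts are given with and without it.

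The label of the cells was checked against markers. The keratins KRT7, KRT8 and KRT18 lay between 2146 and 5818 TPM in every one of the 8 libraries, and AKR1B10, abundant in this line, between 330.4 and 3456 TPM. CDKN2A, a cell-cycle inhibitor deleted in A549, was listed at 0 in all 8. EPCAM, an epithelial surface marker, was low at 2.49 to 8.33 TPM, and the lung factor NKX2-1 did not pass 0.052 TPM. Of the 21 lung epithelial and A549 markers, CDKN2A among them, 11 reached a mean of 1 TPM. The lung markers SFTPC, SFTPA1 and AQP5 did not pass 0.206 TPM. Of the markers of other cells, 7 of 12 fibroblast genes reached a mean of 1 TPM, and their list summed to 22.2 to 53.6 TPM at 6 and 12 h and 31.4 to 52.7 TPM at 24 and 36 h, led by FBLN1. The endothelial list had 2 of 9 genes at that level, ESAM and TIE1, and summed to 4.15 to 15.4 TPM before and 10.97 to 19.2 TPM after, while CDH5, VWF and KDR stayed at or under 0.304 TPM. The leukocyte list had 3 of 12 and summed to 14.9 to 27.1 and 16.3 to 27.1 TPM, with PTPRC at 0.272 TPM or less, and the erythroid list had 0 of 7.

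Between the windows, 19 of 34 NRF2 target genes and 10 of 17 secretory epithelial genes fell, while 7 of 20 collagens, 5 of 15 integrins and 6 of 15 insulin-like growth factor genes rose, in a fit that is 1 of several tried. The comparison as designed, with 1 mean for each window and the replicate number as a block, called 0 of 17360 genes (0%) in either direction at an adjusted p below 0.05 with limma. Its smallest adjusted p was 0.107, and 2752 genes (15.9%) had an unadjusted p below 0.05. In that fit the changes from 6 to 12 h and from 24 to 36 h enter the spread. A fit with 1 mean for each of the 4 times and the same block, which keeps those changes out of the spread and estimates the same difference, called 408 genes higher (2.35%) and 208 lower (1.2%). Without 12 h replicate 1, the fit with 1 mean per window called 1523 higher (8.94%) and 527 lower (3.09%), among them 402 of the 408 and 196 of the 208. Leaving out that library gives 6 h more weight than 12 h in the early mean of this fit. Its difference is then not the same contrast, here and in the list counts below. The fit with 1 mean per time, which weights the times equally, called 416 higher and 130 lower without that library. It kept fewer of its own calls, 306 of the 408 and 111 of the 208. In the text below "rose" and "fell" are used of genes called in the fit with 1 mean per time, and their SE and adjusted p are from that fit. List counts below are to be read against its shares of all genes, 2.35% higher and 1.2% lower. A list with 1 call is no result about that list. Some genes belong to more than 1 list, so the calls of different lists are not separate findings.

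These calls depended on the libraries and on the block. Without the block, the fit with 1 mean per time called 43 genes, all of them among the 616. Leaving out 1 library at a time in that fit gave 145 calls when 24 h replicate 1 was left out and 151 for 24 h replicate 2. It gave 395 calls when 36 h replicate 1 was dropped and 144 for 36 h replicate 2. For the early libraries the count was 546 with 12 h replicate 1 left out, 124 for 12 h replicate 2, 758 for 6 h replicate 1 and 1182 for 6 h replicate 2. Of 99 genes named below with a call, 46 were called again, in the same direction, in each of these 8 fits, and 19 without the block. The 46 include IGFL1, IGFL2, IGFL3, IGFBP5, SLN, FGF1, COL22A1, COL4A1, COL4A2, MMP2, ITGA11, FN1, CDH2, SPARC, VCAN, THBS1 and TAGLN among the rises. Among the falls they include AGR2, CEACAM6, ALDH3A1, GPX2, AKR1B10, AKR1C1, AKR1C2, CDH1, ELF3, KRT19, CA12 and IGFBP6. The other 53 lost the call in at least 1 of the 8 fits, among them COL1A1, TGFBI, SMAD3, NQO1 and MMP7. The calls of BMP4, DSP, IRF9, RPL28 and TGFBR1 were lost in 7 of the 8. With TMM scaling, which centres the libraries on the bulk of genes, it called 381 higher and 498 lower, with 301 of the 408 and 205 of the 208 among them. The median difference of all genes kept was 0.070, against -0.072 with TMM scaling and 0.154 without 12 h replicate 1. Independent of any fit, all 4 late libraries lay above all 4 early ones for 834 genes (4.8%) and below them for 587 genes (3.38%).

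**Figure D1:**
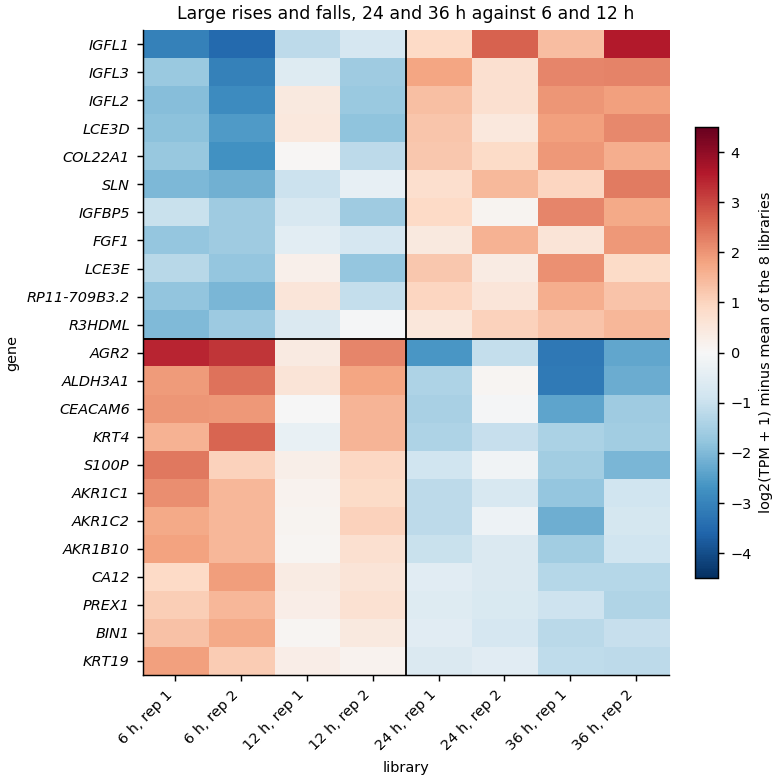
Genes named for the largest called differences without overlap between the windows, 11 rises and 12 falls, as log2(TPM + 1) minus the gene's mean over the 8 libraries (colour), with 1 column per library and a black line between the windows. By this choice all 4 late libraries are above all 4 early ones for each of the 11 rises and below them for each of the 12 falls. The lack of overlap in these genes therefore adds no support to their calls.

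The largest rises were in genes for secreted growth-factor-like proteins. IGFL1, IGFL2 and IGFL3 belong to a small family of secreted insulin growth factor-like proteins encoded next to each other on chromosome 19. At 6, 12, 24 and 36 h, IGFL1 measured 12.8, 49.5, 211 and 298 TPM in replicate 1 and 9.04, 66.5, 715 and 1363 TPM in replicate 2. It climbed at each of the 4 times in both replicates, and the windows did not overlap (log2 difference 4.25, SE 0.38, adjusted p = 0.00282). IGFL3 measured 1.60, 4.49, 27.1 and 37.2 TPM in replicate 1 and 1.75, 12.7 and 37.8 TPM at 12, 24 and 36 h in replicate 2, where it was listed at 0 at 6 h (log2 difference 3.46, SE 0.24), and IGFL2 rose by 2.96 (SE 0.29). IGFBP5, a matrix-associated binding protein for insulin-like growth factors, measured 0.988, 1.43, 6.42 and 17.4 TPM in replicate 1 and 0.320, 0.336, 3.37 and 12.2 TPM in replicate 2. It was low at 6 and 12 h and climbed at 24 h and again at 36 h in both replicates (log2 difference 2.46, SE 0.20, adjusted p = 0.00282). Of the 15 insulin-like growth factor and binding protein genes, 6 rose, IGFBP7 and IGFL4 among them, and IGFBP6 fell by 1.19 on the log2 scale (SE 0.11). The reads of the IGFL genes could be shared between family members, so the split between them is uncertain.

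The other large rises fell outside that family. SLN encodes sarcolipin, a small peptide that inhibits the calcium pump of the endoplasmic reticulum, and measured 3.93, 9.19, 32.8 and 38.4 TPM in replicate 1 and 3.43, 14.4, 53.5 and 99.3 TPM in replicate 2. The windows did not overlap (log2 difference 2.76, SE 0.22, adjusted p = 0.00282). FGF1, a fibroblast growth factor, measured 0.583, 2.79, 6.08 and 6.83 TPM in replicate 1 and 0.709, 2.13, 14.5 and 19.5 TPM in replicate 2. The rise of FGF1 was 1.61 in replicate 1 and 2.95 in replicate 2, an unequal change whose difference did not pass the test (adjusted p = 0.9999 for replicate 2 minus replicate 1). LCE3D and LCE3E, late cornified envelope genes otherwise known from the epidermis, rose by 2.87 (SE 0.37) and 2.24 (SE 0.28), and they are close copies of each other. R3HDML and the transcript RP11-709B3.2 rose by 2.17 (SE 0.13) and 2.20 (SE 0.24).

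Among the collagens, COL22A1, which lies at tissue junctions, measured 5.29, 20.4, 46.6 and 78.5 TPM in replicate 1 and 2.10, 8.07, 36.4 and 63.03 TPM in replicate 2 at 6, 12, 24 and 36 h. All 4 late values exceeded all 4 early ones (log2 difference 2.81, SE 0.19, adjusted p = 0.00145). Of 27 collagen genes, 20 passed the level filter, 7 rose and 0 fell, and the median difference was 0.652 against 0.070 for all genes. The basement membrane chains COL4A1 and COL4A2, which are transcribed from 1 shared promoter region, rose by 1.38 (SE 0.13) and 1.42 (SE 0.16), and COL4A4 by 1.46 (SE 0.18). COL1A1, the main fibrillar collagen chain, measured 23.6, 274, 197 and 209 TPM in replicate 1 and 10.9, 47.3, 66.6 and 50.7 TPM in replicate 2. Most of its change lay between 6 and 12 h, and the called difference of 1.31 (SE 0.21, adjusted p = 0.0189) turned to -0.07 when 6 h was left out. Without 12 h replicate 1, 11 of the 20 collagens were higher in the fit with 1 mean per window and 1 lower, with 6 h then weighted above 12 h.

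Calls were also made among basement membrane and matricellular genes, where the shares of all genes were 2.35% higher and 1.2% lower. LAMB1, a laminin chain, rose by 0.85 (SE 0.15), and NID1, which links laminin to collagen IV, by 1.87 (SE 0.27). Of the 13 laminin and basement membrane genes past the filter, 3 rose, these 2 among them, and 0 fell, with a median of 0.273. Among 15 matricellular and YAP target genes, 5 rose and WISP2 fell by 1.38 (SE 0.14) on the log2 scale, and the list's median was 0.066 (0.367 in replicate 1 and -0.066 in replicate 2). THBS1, thrombospondin 1, which can activate latent TGF-beta, went from 384 ± 296 TPM to 1061 ± 269 TPM (SD, n = 4; log2 difference 1.72, SE 0.15). SPARC, VCAN and TNFAIP6, which bind collagen or hyaluronan in the matrix, rose by 1.95, 1.85 and 1.83 (SE 0.20, 0.16 and 0.32). Of the enzymes that modify collagen, 2 of 17 past the filter rose: the prolyl hydroxylase subunit P4HA3 by 1.22 (SE 0.20) and the procollagen proteinase BMP1 by 0.69 (SE 0.14).

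Proteases and their inhibitors split by gene. Of 25 genes, 22 passed the filter, 8 rose and 2 fell. MMP2, gelatinase A, measured 12.7, 84.8, 123 and 191 TPM in replicate 1 and 2.08, 9.50, 41.5 and 70.5 TPM in replicate 2. It was low at 6 h in both replicates, and 12 h replicate 1 reached the late range, so the windows overlapped (log2 difference 2.72, SE 0.25, adjusted p = 0.00282). MMP7, matrilysin, a protease of secretory epithelium, measured 141, 28.4, 13.8 and 4.24 TPM in replicate 1 and 306, 292, 188 and 78.97 TPM in replicate 2 and fell by 2.08 (SE 0.40) on the log2 scale. MMP24 also fell by 1.002 (SE 0.16). SERPINE2, protease nexin 1, rose by 2.12 (SE 0.19), and ADAMTS6, MMP10 and ADAM19 by 1.57, 1.35 and 1.33 (SE 0.24, 0.26 and 0.14). MMP9, gelatinase B, did not pass the test, with a difference of -0.038 (SE 0.29) at 1.38 ± 1.68 and 1.07 ± 0.605 TPM (SD, n = 4).

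Integrins, the receptors for matrix, had 15 of 19 genes past the filter, of which 5 rose and 0 fell, with a median of 0.55. ITGA11, a collagen receptor subunit, measured 8.66, 56.1, 74.9 and 139 TPM in replicate 1 and 2.56, 11.2, 49.5 and 99.2 TPM in replicate 2 (log2 difference 2.78, SE 0.27, adjusted p = 0.00324). ITGA1 and ITGA2, also subunits of collagen receptors, rose by 1.56 (SE 0.19) and 1.06 (SE 0.21). ITGB6, part of the integrin that activates latent TGF-beta, rose by 0.90 (SE 0.14) with no overlap between the windows. Contractile and focal adhesion genes gave 5 rises and 1 fall among 27, with a median of 0.172 that was 0.010 with TMM scaling. TAGLN, transgelin, which binds actin filaments, measured 164, 401, 669.6 and 891 TPM in replicate 1 and 57.6, 203, 591 and 681 TPM in replicate 2, without overlap (log2 difference 2.06, SE 0.20). TPM2, a tropomyosin, and TGFB1I1, a focal adhesion adaptor, rose by 0.66 (SE 0.11) and 0.71 (SE 0.13). MYL9, a myosin light chain, rose by 1.34 (SE 0.26) and MYLK, a myosin light chain kinase, fell by 0.81 (SE 0.16).

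**Figure D2:**
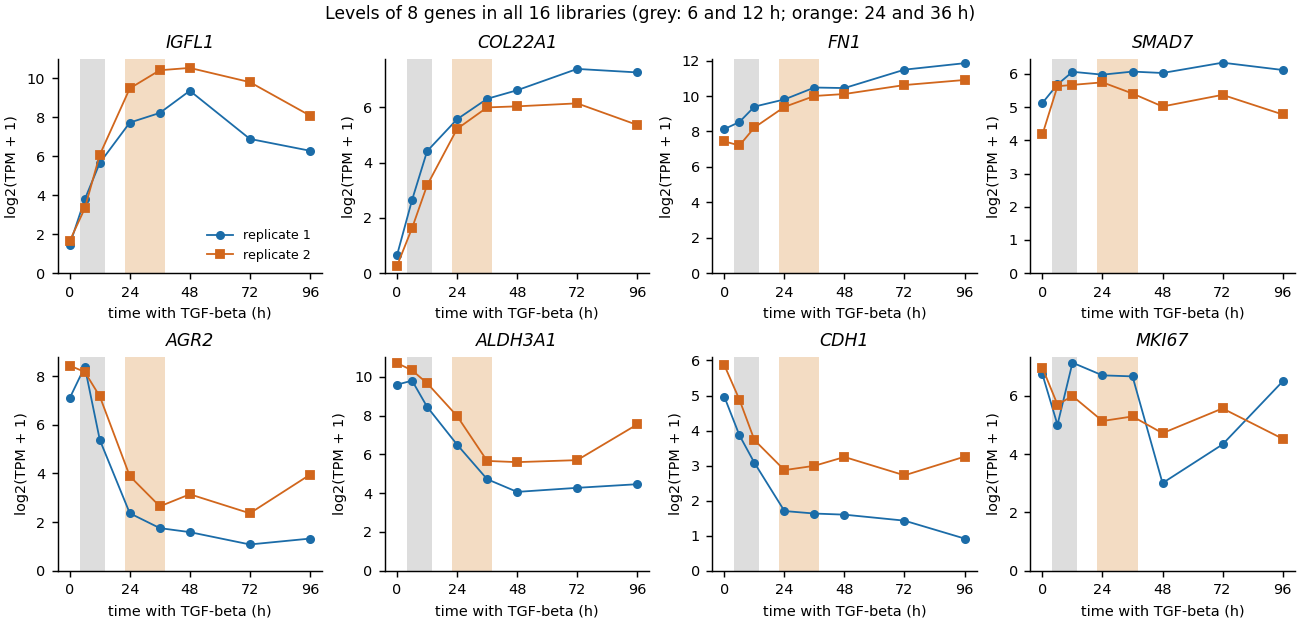
Levels of 8 genes as log2(TPM + 1) at the 8 times from 0 to 96 h, with 1 line per replicate and the windows shaded grey (6 and 12 h) and orange (24 and 36 h). IGFL1, COL22A1 and FN1 are higher in the orange window and AGR2, ALDH3A1 and CDH1 lower, with 12 h replicate 1 of FN1 inside the late range, while SMAD7 and MKI67 were not called.

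The mesenchymal markers had 15 of 18 genes past the filter, of which 7 rose and 0 fell (median 0.786, or 0.721 with TMM scaling). FN1, fibronectin, measured 369.7, 676, 896 and 1429 TPM in replicate 1 and 147, 298, 668 and 1026 TPM in replicate 2 at 6, 12, 24 and 36 h. Its 12 h replicate 1 value lay within the late range (log2 difference 1.58, SE 0.17, adjusted p = 0.00426). CDH2, N-cadherin, the mesenchymal counterpart of E-cadherin, went from 88.9 ± 48.1 TPM to 164 ± 51.2 TPM (SD, n = 4; log2 difference 0.97, SE 0.10), and CDH11 rose by 1.88 (SE 0.37). VIM, the intermediate filament vimentin, was already at 1229 and 1134 TPM at 6 h and did not pass the test (log2 difference 0.51, SE 0.13, adjusted p = 0.0806). Markers of other cells moved beside these genes: all 7 fibroblast markers past the filter had differences above 0, with a median of 0.481 (0.535 in replicate 1 and 0.444 in replicate 2) and 0 calls. The endothelial marker ESAM, a junction protein, rose by 0.91 (SE 0.18), and the part of such cells in the matrix and mesenchymal rises was not tested.

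Of the 17 EMT transcription factors, 13 passed the filter and 2 rose: HMGA2, a chromatin protein, by 1.41 (SE 0.20) and TCF4, an E-box-binding factor, by 0.83 (SE 0.16). SNAI1 measured 5.67, 13.8, 12.3 and 11.9 TPM in replicate 1 and 2.72, 7.22, 8.10 and 7.78 TPM in replicate 2, with a difference of 0.55 (SE 0.16, adjusted p = 0.114) that was not called. SNAI2, ZEB1 and ZEB2 differed by 0.64, 0.36 and 0.48 (SE 0.25, 0.12 and 0.19), and TWIST1 by 0.031 (SE 0.24), also without a call. A p that misses the threshold does not show that these levels were equal.

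Of 23 SMAD-induced targets, 22 passed the filter, 8 rose and 1 fell, and the median was 0.415. Among these rises TAGLN, COL4A1, ADAM19, TGFB1I1 and LTBP2 are also counted in other lists. Within this list the median change from 6 to 12 h was 0.777 and that from 24 to 36 h 0.102, against 0.226 and 0.002 for all genes. TGFBI, a secreted matrix protein named for its induction by TGF-beta, measured 2467, 4916, 6116 and 6697 TPM in replicate 1 and 1969, 4004, 6855 and 8383 TPM in replicate 2 (log2 difference 1.16, SE 0.16, adjusted p = 0.0113). ANGPTL4, a secreted lipase inhibitor, fell by 0.59 (SE 0.11) on the log2 scale, to a level still above that at 0 h. It averaged 7.53 TPM at 0 h, 184.7 TPM at 6 and 12 h and 123 TPM at 24 and 36 h. Without 12 h replicate 1 the fit with 1 mean per time gave it a difference of -0.52 and no call.

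Among the carriers of the signal, TGFBR1, the type I receptor, rose by 0.54 (SE 0.11), and LTBP2, a matrix protein of the latent TGF-beta binding family, by 0.82 (SE 0.15). SMAD3 measured 69.1, 119, 60.5 and 50.4 TPM in replicate 1 and 87.96, 97.4, 64.0 and 38.6 TPM in replicate 2 and fell by 0.80 on the log2 scale (SE 0.14, adjusted p = 0.0238). All 4 late values of SMAD3 lay below all 4 early ones. Its call was lost in 5 of the 8 fits with 1 mean per time that left out 1 library. In the fit with 1 mean per window, which called no gene with all 8 libraries, its adjusted p without 12 h replicate 1 was 0.0588. The list of carriers, feedback genes and ligands had 2 rises and 1 fall among 21 genes, against 2.35% and 1.2% of all genes, with a median of 0.218. The feedback inhibitor SMAD7 differed by 0.040 (SE 0.12), which was -0.12 with TMM scaling, and SKIL by 0.33 (SE 0.10), both uncalled. ID1 and ID3, targets of the related BMP signal, differed by -0.26 (SE 0.16) and -0.12 (SE 0.10) and were not called. In the ID and BMP list, 2 of 17 genes rose, the BMP antagonist GREM1 by 2.03 (SE 0.22) and the activin subunit INHBA by 1.74 (SE 0.24), and the ligand BMP4 fell by 0.91 (SE 0.20). CTGF, a matricellular target of SMAD and YAP, had a difference of 0.99 with an SE of 0.30 and no call.

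On the falling side, secretory epithelial genes had the lowest median of the lists. Of 25 such genes, 17 passed the filter, 10 fell and 0 rose, and their median was -1.24 (-1.35 with TMM scaling), with -1.21 in replicate 1 and -1.30 in replicate 2. AGR2, a protein disulfide isomerase needed for mucin folding, measured 332, 40.6, 4.14 and 2.37 TPM in replicate 1 and 287, 143, 13.8 and 5.26 TPM in replicate 2 at 6, 12, 24 and 36 h. It dropped at every step in both replicates, and the windows did not overlap (log2 difference -4.61, SE 0.29, adjusted p = 0.00136). CEACAM6, a cell-surface adhesion protein, measured 59.6, 14.3, 4.66 and 1.98 TPM in replicate 1 and 59.5, 43.6, 13.98 and 4.16 TPM in replicate 2 (log2 difference -2.73, SE 0.25). S100P, a calcium-binding protein, and SLPI, an antiprotease of mucosal fluids, fell by 2.33 (SE 0.36) and 2.43 (SE 0.43) on the log2 scale. The fibrinogen chain genes FGA, FGB and FGG, the mucin MUC5AC, CEACAM5 and the secretory-cell factor SPDEF were the other members that fell.

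Epithelial junction and identity genes did not move as 1 group. Of 39, 29 passed the filter, 4 fell and 3 rose, with a median of -0.362. CDH1 measured 13.6, 7.45, 2.26 and 2.10 TPM in replicate 1 and 28.5, 12.3, 6.32 and 6.97 TPM in replicate 2. All 4 late values were below all 4 early ones, with little change from 24 to 36 h (log2 difference -1.59, SE 0.18, adjusted p = 0.00506). ELF3, an epithelial transcription factor, PKP3, a desmosomal plakophilin, and LLGL2, a polarity protein, fell by 1.22, 1.10 and 0.91 (SE 0.14, 0.18 and 0.12). The desmosomal genes DSC2, DSG2 and DSP rose instead, by 0.97, 0.59 and 0.57 (SE 0.16, 0.11 and 0.12). Their calls were lost in 4, 5 and 7 of the 8 fits that left out 1 library. EPCAM was not called (log2 difference -0.40, SE 0.18). Of the 6 keratins in a further list (KRT7, KRT8, KRT18, KRT19, KRT80 and KRT81), KRT19 fell by 1.73 (SE 0.15) and KRT80 by 1.32 (SE 0.22). KRT18 had a difference of -0.65 (SE 0.16, adjusted p = 0.0751) that was not called. KRT4, a keratin of stratified mucosa, fell by 2.70 (SE 0.34). In bulk RNA, fewer cells of a type and less RNA per cell cannot be told apart.

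**Figure D3:**
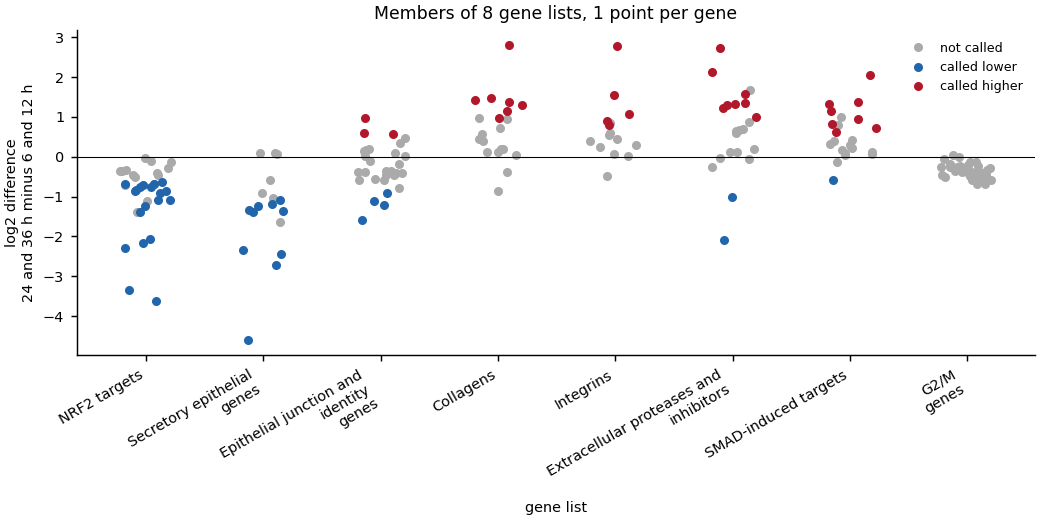
Log2 difference, 24 and 36 h minus 6 and 12 h, of each member past the filter in 8 gene lists, coloured by its call in the fit with 1 mean per time. All 34 NRF2 targets lie below 0 with 19 called lower, while epithelial junction genes lie on both sides, with 4 called lower and 3 higher.

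NRF2 targets were the list with the most falls. All 34 passed the filter, 19 fell, 0 rose, and in 19 the 4 late libraries lay below the 4 early ones, against 3.38% of all genes. The median was -0.741, with -0.738 in replicate 1, -0.807 in replicate 2 and -0.908 with TMM scaling, and all 34 differences were below 0. Without 12 h replicate 1 the fit with 1 mean per window called 24 of them lower, with 6 h then weighted above 12 h. The members were chosen with earlier results of these data known, so their common direction is a description.

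ALDH3A1, an aldehyde dehydrogenase, measured 892, 349.6, 89.6 and 25.4 TPM in replicate 1 and 1289, 815, 251 and 49.6 TPM in replicate 2 at 6, 12, 24 and 36 h. It declined at each of these times in both replicates (log2 difference between the windows -3.35, SE 0.15, adjusted p = 0.000299). GPX2, a selenium-dependent glutathione peroxidase, measured 379, 37.8, 11.1 and 4.53 TPM in replicate 1 and 377, 217, 53.8 and 13.0 TPM in replicate 2 (log2 difference -3.63, SE 0.35). AKR1B10, AKR1C1 and AKR1C2, aldo-keto reductases, fell by 2.06, 2.29 and 2.18 on the log2 scale (SE 0.17, 0.21 and 0.24). AKR1C1 and AKR1C2 are near-identical copies, so the split of reads between them is uncertain. NQO1, the quinone reductase often used as the readout of NRF2, went from 2088 ± 434 TPM to 1156 ± 188 TPM (SD, n = 4; log2 difference -0.84, SE 0.12, adjusted p = 0.0123). The pentose phosphate enzyme PGD, which supplies NADPH, fell by 0.87, and the ferritin chains FTL and FTH1, which store iron, by 1.08 and 0.77. Glutathione and thioredoxin enzymes were also among the falls, GSR by 0.86, TXNRD1 by 0.69 and SRXN1 by 0.92.

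Promoter letters were read from RefSeq (GRCh38.p14), 250 bases before to 50 after each start, for the 10034 of 17320 gene symbols with an entry. The core of the antioxidant response element (ARE), TGACNNNGC on either strand, was found in 9 of 29 NRF2 target promoters (31%), against 14.3% of all promoters of genes kept and 13.3% of those of genes that fell. The AP-1 letters TGANTCA, which can overlap an ARE, were in 8.81% of promoters of genes that rose, 7.73% of those of genes that fell, 13.8% of those of NRF2 targets and 5.51% of all. The E-box CAGGTG, the letters that SNAI and ZEB factors bind, was in 41.7% of the 24 promoters of epithelial junction genes, in 7 of 14 of secretory genes and in 18.7% of all. The SMAD letters CAGACA were in 17.8% of promoters of genes that rose, 14.2% of those of genes that fell, 2 of 29 of those of SMAD-induced targets (6.9%) and 13.7% of all, and GTCTAGAC in 2 of 488 and 0.17%. The E2F letters TTTGGCGC or TTTCGCGC were in 26.7% of promoters of S-phase genes and 1.7% of all. A match describes letters and is no evidence of binding. The stretches below are shown because these genes fell or rose and hold such a match, with 25 bases on each side, written 5′ to 3′ on the strand of the gene and with the match in capitals, which reads as the reverse complement where the motif is on the other strand. GPX2 (chr14:64942834-64942892, minus strand), TXNRD1 (chr12:104215655-104215713, plus), PGD (chr1:10398838-10398896, plus) and EPHX1 (chr1:225825251-225825309, plus; an epoxide hydrolase that fell by 0.70) hold the ARE core. IL11 (chr19:55370528-55370584, minus) and IGFL3 (chr19:46124869-46124925, minus) hold AP-1 letters, and ELF3 (chr1:202010442-202010497, plus) holds the E-box.
GPX2: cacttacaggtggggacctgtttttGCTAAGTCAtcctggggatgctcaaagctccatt
TXNRD1: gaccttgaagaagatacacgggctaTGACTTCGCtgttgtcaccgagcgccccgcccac
PGD: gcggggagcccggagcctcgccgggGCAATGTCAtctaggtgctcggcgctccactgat
EPHX1: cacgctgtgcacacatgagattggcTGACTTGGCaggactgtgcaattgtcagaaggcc
IL11: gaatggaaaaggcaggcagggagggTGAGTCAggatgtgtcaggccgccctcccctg
IGFL3: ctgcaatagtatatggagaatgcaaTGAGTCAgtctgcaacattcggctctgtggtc
ELF3: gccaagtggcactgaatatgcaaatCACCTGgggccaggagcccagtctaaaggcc

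Of 29 glycolysis and hypoxia genes past the filter, 5 fell and 1 rose, against 1.2% and 2.35% of all genes. In 12 of the 29 the late libraries all lay below the early ones, against 3.38% of all genes, and the median was -0.343. The glucose transporters differed in direction: SLC2A1 fell by 0.77 (SE 0.12) and SLC2A3 rose by 0.99 (SE 0.10). CA12, a carbonic anhydrase of the cell surface, measured 116, 78.96, 42.6 and 24.7 TPM in replicate 1 and 225, 91.7, 38.9 and 24.4 TPM in replicate 2 (log2 difference -1.86, SE 0.18). PFKFB3, which makes an activator of glycolysis, and BNIP3, a mitochondrial protein, fell by 0.89 (SE 0.19) and 0.76 (SE 0.12). Of 24 sterol synthesis and uptake genes, STARD4 was the 1 called, with a rise of 0.66 (SE 0.14), and the median was 0.382. Among 16 heat shock genes 3 fell, HSP90AA1 by 0.62 (SE 0.11) and the near-identical copies HSPA1A and HSPA1B by 0.98 and 0.99 (SE 0.19 and 0.19). The lists of ATF4 and unfolded protein genes and of p53 targets had 0 calls among 22 and 20 members. CDKN1A and GDF15, p53 and stress targets, differed by 0.0997 (SE 0.11) and -0.17 (SE 0.26).

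Genes of secreted signals and their receptors gave scattered calls, against 2.35% of all genes called higher and 1.2% lower. IL11, a cytokine downstream of TGF-beta, measured 293, 548.8, 608 and 772 TPM in replicate 1 and 199, 276, 455 and 574 TPM in replicate 2 (log2 difference 0.95, SE 0.12), and was the 1 call among 17 chemokine and NF-kB linked genes. EGFR and its family's ligand NRG1 rose by 0.995 (SE 0.19) and 0.63 (SE 0.13) among 10 genes. In the Wnt list the ligand WNT5B rose by 1.40 (SE 0.17) and the antagonist DKK1 fell by 1.80 (SE 0.21), with 17 past the filter. DUSP1, PHLDA1 and SPRY4, of which DUSP1 and SPRY4 dampen MAP kinase signalling, rose by 0.84, 1.46 and 1.30 (SE 0.12, 0.14 and 0.23), as 3 of 20 immediate early genes. STAT2 and IRF9, partners in the interferon-activated transcription complex, rose by 0.73 (SE 0.13) and 0.65 (SE 0.14), as 2 of 20. PREX1, an activator of Rac, and BIN1, a membrane-bending protein, fell by 1.78 (SE 0.21) and 1.76 (SE 0.16).

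Cell-cycle genes had no call: 0 of 40 S-phase and 0 of 38 G2/M genes, with median differences of -0.253 and -0.373. The S-phase median was 0.025 in replicate 1 and -0.522 in replicate 2, and the G2/M median 0.034 and -0.732. MKI67, a proliferation marker, measured 31.1, 139.8, 103 and 101 TPM in replicate 1 and 51.0, 62.7, 34.2 and 38.2 TPM in replicate 2, so within replicate 1 the 12 h value was high and the 6 h value low, and the windows overlapped. The limma test of a difference in change between the replicates called 0 genes (0%), with a smallest adjusted p of 0.9999. In it 322 genes (1.85%) had an unadjusted p below 0.05. The changes within each window enter its spread, so the lack of calls does not show that the replicates changed alike. CDK6, a G1 kinase, rose by 0.97 (SE 0.19), as 1 of 18 G1 regulators, against 2.35% of all genes called higher and 1.2% lower. Ribosome biogenesis genes had 0 calls among 30 and a median of -0.305, and cytosolic ribosomal protein genes 1 among 48, RPL28, which rose by 0.58 (SE 0.12). The mitochondrially encoded transcripts made up 1.01% to 2.14% of the rescaled TPM, highest in 12 h replicate 1, with 0 of 13 called, and 1 of 37 nuclear respiratory chain genes, ATP5G1, fell by 0.57 (SE 0.11).

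**Figure D4:**
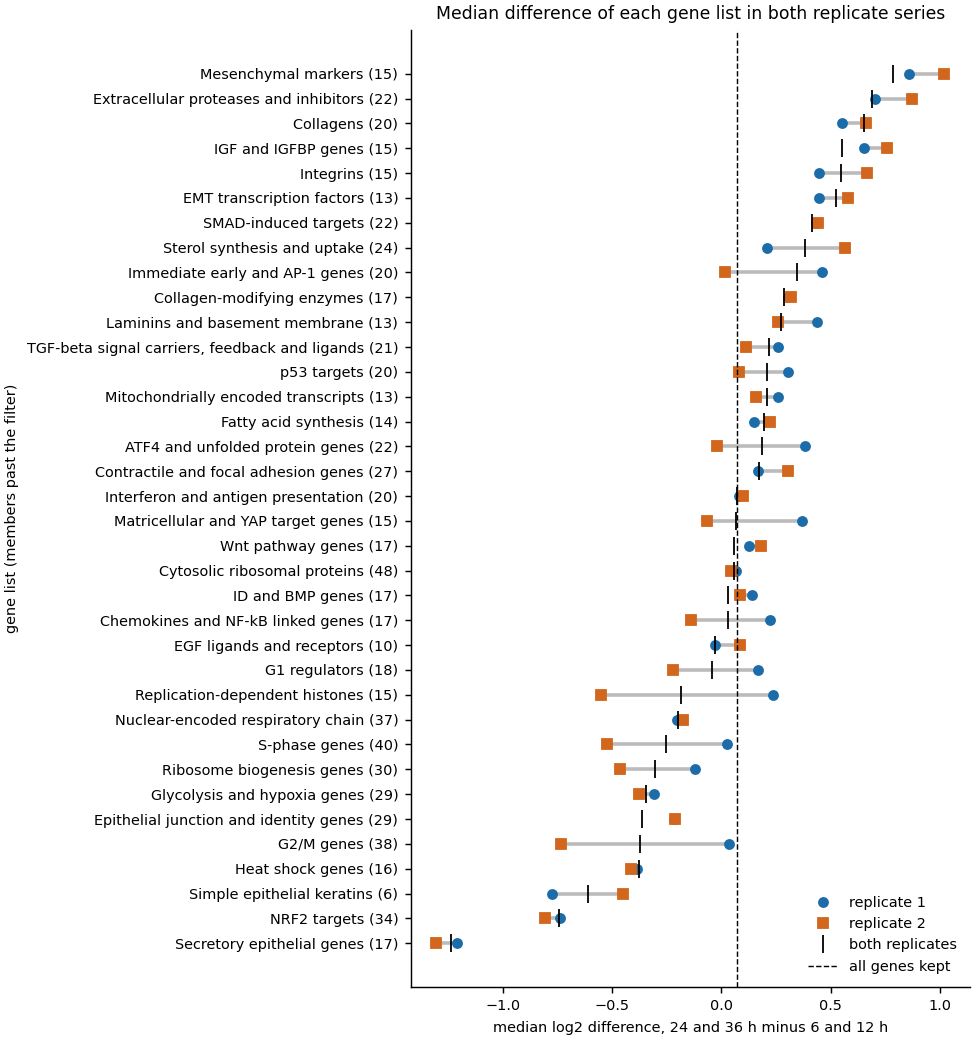
Median log2 difference between the windows of each gene list with at least 5 members past the filter, in replicate 1 (circles), replicate 2 (squares) and both (bars); the dashed line is the median of all genes kept, 0.070. NRF2 and secretory lists lie left of 0 in both replicates, collagen, integrin and protease lists right of it, and S-phase and G2/M lists lie near 0 in replicate 1 and left of it in replicate 2.

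The steps between neighbouring times were tested apart. For 12 against 6 h, 0 genes (0%) were called, with a smallest adjusted p of 0.0776 and 3506 genes (20.2%) at an unadjusted p below 0.05. For 24 against 12 h there were 0 calls (0%), a smallest adjusted p of 0.478 and 608 genes (3.5%) at that level. For 36 against 24 h there were 0 calls (0%), a smallest adjusted p of 0.203 and 472 genes (2.72%). The 12 against 6 h step rested on single libraries: it called 1831 higher and 212 lower without 6 h replicate 2, and 29 higher and 1 lower without 12 h replicate 2. With TPM as deposited, it called 548 higher and 12 lower.

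Among the 408 genes that rose between the windows, 402 were already higher at 12 h than at 6 h, against 70.66% of all genes kept, and 368 were higher at 36 h than at 24 h, against 50.36%. Their median steps were 0.817 from 6 to 12 h, 0.467 from 12 to 24 h and 0.262 from 24 to 36 h. Of the 208 that fell, 27 were higher at 12 h than at 6 h and 14 higher at 36 h than at 24 h, with median steps of -0.402, -0.527 and -0.342. The windows did not overlap for 212 of the 408 and 120 of the 208, and for 1421 of all 17360 genes kept. These steps use the libraries that chose the genes and are a description.

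Libraries outside the comparison place these levels in the course, as values with no test. Relative to the mean of 6 and 12 h, the genes that rose had medians of -0.488, 0.859, 1.11 and 0.778 at 0, 48, 72 and 96 h, and 403 of 408 were above that mean at 72 h and 371 at 96 h. The genes that fell had medians of 0.291, -1.14, -1.18 and -1.10 at those times, with 0 of 208 above the mean at 72 h and 4 at 96 h. The same median over all genes kept was 0.137, -0.102, 0.110 and 0.020. Of all 17360 genes kept, 10398 were above the mean of 6 and 12 h at 72 h and 9038 at 96 h. At 0 h, 120 of the 408 that rose, 145 of the 208 that fell and 11562 of all genes kept were above it. The 6 and 12 h libraries also chose the called genes, so their direction at other times is partly set by that choice. AGR2 averaged 240.1 TPM at 0 h and 5.29 TPM over 72 and 96 h. IGFL1 averaged 1.96 TPM at 0 h and 339.5 TPM over 72 and 96 h, and ALDH3A1 1223 and 69.1 TPM.

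**Figure D5:**
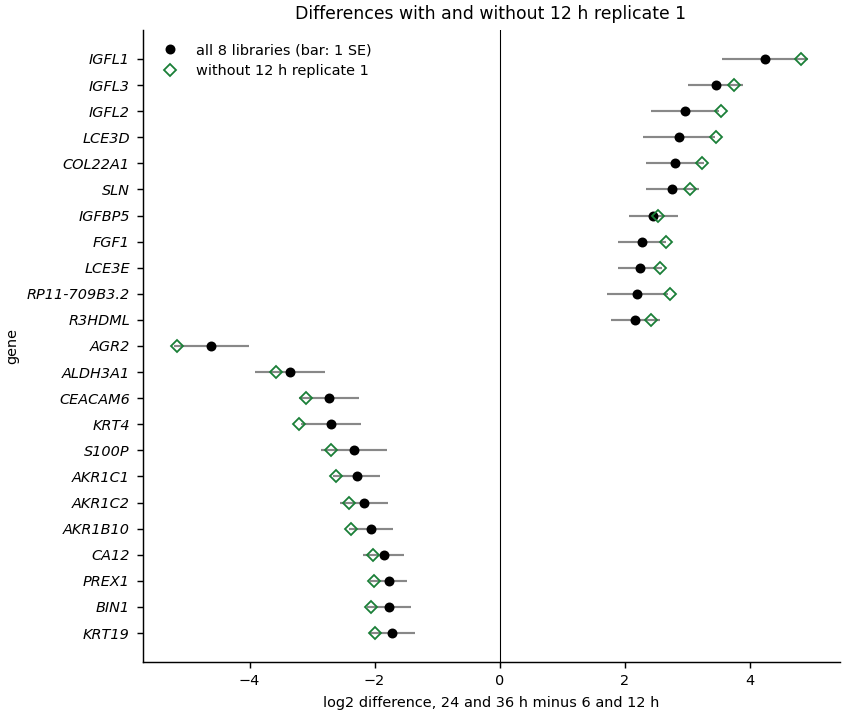
Log2 difference between the windows of the 11 rises and 12 falls of the plot by library, with all 8 libraries (points, with 1 SE of the fit with 1 mean per window) and without 12 h replicate 1 (diamonds). In each of the 23 genes the difference in that fit is larger in size without that library. Examples are 4.82 against 4.25 for IGFL1 and -5.17 against -4.61 for AGR2. Leaving the library out gives 6 h more weight than 12 h in the early mean of that fit. In the fit with 1 mean per time, which weights the times equally, AGR2 was then -4.88, and CA12 -1.84 against -1.86.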

How the data were processed

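RNA from A549 cells was sequenced from libraries made with an Illumina TruSeq RNA kit after Trizol extraction, per the labels' protocols. The authors deposited TPM in 2 tables, 1 for each replicate number, and the submitters' processing notes name Bowtie and RSEM. No label or header used here gives their versions, a genome build or an annotation, and TPM keep no depth. Tables were joined by Ensembl identifier. RN7SL1, RN7SL2, RN7SL3, RN7SK, RMRP and RPPH1 were dropped, each library was rescaled to 1000000 and log2(TPM + 1) taken. The 17360 of 57773 genes whose TPM averaged 1 or more over the 8 libraries were kept.

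The windows were compared in limma 3.58.1 under R 4.3.3 (empirical Bayes with a mean trend, two-sided, Benjamini-Hochberg over all genes kept, called below 0.05), with the replicate number as a block. Libraries with the same number deviated together from their time means in 6 of 6 pairs of times, with correlations from 0.189 to 0.575. The designed fit with 1 mean per window called no gene, so genes were named from a second fit with 1 mean per time: the 12 largest rises and falls among called genes with at least 5 TPM in the higher window and no overlap, up to 4 risen and 4 fallen members of each list, and fixed markers. A few genes that meet this rule are not reported here. IGFBP7, IGFL4, FTL, FTH1, PGD, GSR, TXNRD1, SRXN1, EPHX1, FGA, FGB, FGG, MUC5AC, CEACAM5 and SPDEF are named beyond that rule, chosen after their values were seen. Members and lists were chosen with earlier results of these data known. Lists were described by counts and medians, with no test. Alternatives covered scaling, pseudocount, filter, block and left-out libraries or times.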

Additional observations from a re-analysis of the deposited data

Results flagged for a closer look

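In 4 of 240 groups of 4 libraries examined (each named gene and 4 library measures in each window), 1 library lay apart from the other 3 by a gap, as a share of the whole range, above Dixon's critical value for 4 values. Chance gives about 1 in 20. HSPA1B, a heat shock protein, measured 203.7 TPM in 6 h replicate 1 against 121 to 125 TPM in the other libraries of 6 and 12 h (gap 0.941 of the range). ID1, a BMP target, measured 258 TPM in 12 h replicate 1 against 348 to 351 TPM (gap 0.969). SMAD7, the feedback inhibitor, measured 66.0 TPM in 12 h replicate 1 against 48.5 to 50.4 TPM (gap 0.876). ID3 measured 242 TPM in 24 h replicate 2 against 209 to 214 TPM in the other libraries of 24 and 36 h (gap 0.841).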

How the results depend on the processing

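The fit with 1 mean per window called 0 genes in each direction with TMM scaling, TPM as deposited, pseudocounts of 0.1 and 5, other filters, no trend, no replicate block and without 6, 24 or 36 h. It called 1997 higher and 546 lower without 12 h, and 0 to 1523 higher and 0 to 527 lower leaving out 1 library each. With TMM scaling without 12 h replicate 1 (chosen after seeing the data) it called 963 higher and 2560 lower. The fit with 1 mean per time and the replicate block called 408 higher and 208 lower, and 301 and 179 when fitted over all 16 libraries. The fit with 1 mean per time, in settings chosen after seeing the data, gave 31 higher and 12 lower with no replicate block, 498 lower with TMM scaling, and 88 to 907 higher and 36 to 343 lower leaving out 1 library each. For 12 against 6 h, TPM as deposited called 548 higher and 12 lower, TMM scaling 1 higher, and left-out libraries 0 to 1831 higher and 0 to 212 lower. For 24 against 12 h, TPM as deposited called 2 higher and 5 lower, and left-out libraries 0 to 2 lower. For 36 against 24 h, TPM as deposited called 1 lower, and left-out libraries 0 to 1 in each direction. With no replicate block these 3 steps called 0 genes. The causes were not tested. TPM keep no depth, so the counting error of low values is unknown.

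Of 99 named genes called with 1 mean per time, 48 to 94 were called again leaving out 1 library each, 46 in all 8 such fits, 86 with TMM scaling and 19 with no replicate block. Against the fit with 1 mean per window, which had no call to lose, 54 of 3822 pairs of a named gene and a setting changed sign, in 9 genes, of which COL1A1 was called with 1 mean per time. The reversed log2 differences follow by setting. With TMM scaling, CDKN1A was -0.065, SMAD7 -0.124 and TWIST1 -0.085. With TMM scaling, without 12 h replicate 1, CDKN1A was -0.111, MKI67 0.001, SMAD7 -0.199 and TWIST1 -0.195. Without 6 h, CDKN1A was -0.048, COL1A1 -0.069, SMAD7 -0.066, SNAI1 -0.026 and ZEB1 -0.025. Without 24 h, GDF15 was 0.139, MKI67 0.021 and SMAD7 -0.022. Without 12 h, MKI67 was 0.597. With pseudocount 0.1, MMP9 was 0.044. Without 36 h, MMP9 was 0.149 and TWIST1 -0.020. In the fit with 1 mean per time the reversed values were these. With TMM scaling, CDKN1A was -0.065, SMAD7 -0.124 and TWIST1 -0.085. Without 6 h replicate 2, GDF15 was 0.091, MKI67 0.505 and MMP9 0.063. Without 36 h replicate 2, GDF15 was 0.127, MKI67 0.166 and MMP9 0.013. Without 12 h replicate 1, MKI67 was 0.089 and TWIST1 -0.042. Without 24 h replicate 2, MKI67 was 0.230. Without 24 h replicate 1, MMP9 was 0.159 and TWIST1 -0.087. Without 6 h replicate 1, SMAD7 was -0.054 and TWIST1 -0.128. Without 36 h replicate 1, SMAD7 was -0.069 and TWIST1 -0.083. In the fit with 1 mean per window, leaving out 1 library each, the difference ranged from -0.011 to 0.185 for CDKN1A, from -0.467 to 0.009 for GDF15, from -0.560 to 0.292 for MKI67, from -0.275 to 0.068 for MMP9, from -0.059 to 0.129 for SMAD7, and from -0.075 to 0.122 for TWIST1.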
